A study of Mus musculus with 24 samples.

Results

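Kidneys with high and with low expression of immediate early genes were compared within 1 bulk RNA-seq series of 24 libraries from male mice with X-linked Alport syndrome (XLAS). The libraries were chosen by the measured level of 4 genes, Fos, Fosb, Egr1 and Junb. Within each batch of 12 libraries, the libraries were ranked by the mean log2(TPM + 1) of these 4 genes (TPM is the deposited abundance, normalised for gene length and depth), and the upper 6 were set against the lower 6, which gave 12 against 12 of the 24 libraries. Replicate numbers below were given in accession order within a genotype and only name libraries. All mice were on the B6 background and 15 weeks old, and each was labelled heterozygous (HET) or wild type (WT) for Nbl1, whose protein binds BMP ligands outside the cell and blocks them. All carried XLAS, in which defective Col4a5, a type IV collagen gene, weakens the glomerular basement membrane; the labels used here do not name the Col4a5 allele. The upper 6 of batch 1 held 4 HET and 2 WT mice and the lower 6 held 2 HET and 4 WT mice. The upper 6 of batch 2 held 3 HET and 3 WT mice and the lower 6 held 4 HET and 2 WT mice. No mouse without XLAS and no treatment was part of the design.

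Immediate early genes are transcribed within minutes of a stimulus from factors already present in the cell, without new protein synthesis. Their products include transcription factors of the AP-1, EGR and NR4A families, secreted signals, and phosphatases and RNA-binding proteins that shut the response off again. In kidney they respond to growth factors, ischemia, injury and the handling of tissue. Their level can vary widely between tissue samples of 1 group.

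The 4 genes that set the ranking are described here without a test, because their levels chose the groups. In the upper 6 of batch 1 the ranking score ran from 1.64 to 4.81 (median 3.21), and in the lower 6 from 1.02 to 1.55 (median 1.44). The spread was narrower in batch 2, with 2.49 to 3.35 (median 2.65) in the upper 6 and 1.97 to 2.42 (median 2.22) in the lower 6. The library just inside the upper group of batch 1 was HET replicate 6 at 1.64 and the one just outside was WT replicate 2 at 1.55. In batch 2 WT replicate 9 lay just inside at 2.49 and HET replicate 10 just outside at 2.42, and these 2 changed places when depth-scaled counts (CPM) replaced TPM in the score. Fos, the founding AP-1 subunit (GRCm38 chr12:85473890-85477273, plus strand), was listed at 32.4 TPM in HET replicate 5, 20.6 in HET replicate 4, 15.1 in WT replicate 6 and 5.21 in WT replicate 5, against at most 1.1 TPM in the other 8 libraries of batch 1. Egr1, a zinc finger factor, was listed at 97.5, 42.4, 37.2 and 13.1 TPM in the same 4 libraries, where the other 8 reached 5.25 TPM. These 4 kidneys thus held most of the range of the score in batch 1. In batch 2 the highest library, HET replicate 12, stood out by Fosb, at 6.82 TPM against at most 0.73 TPM in the other 11, while its Fos (5.51 TPM) was below that of HET replicate 13 (7.49 TPM).

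**Figure D1:**
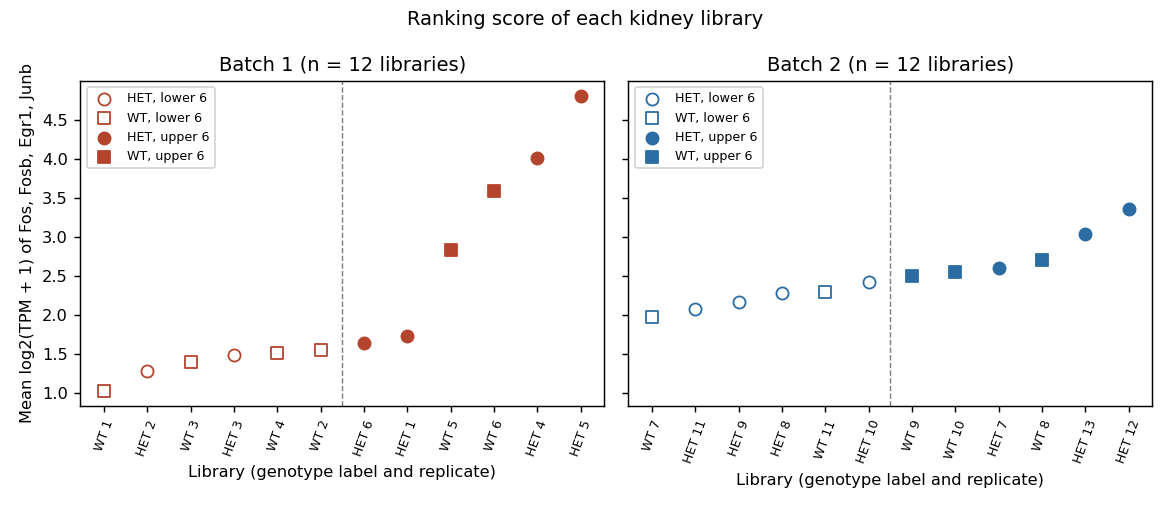
Each point is 1 kidney library in order of its ranking score, the mean log2(TPM + 1) of Fos, Fosb, Egr1 and Junb (vertical axis, log2 units), with circles for HET, squares for WT, filled symbols for the upper 6 and open symbols for the lower 6 of each batch. In batch 1 the 4 highest libraries lie between 2.83 and 4.81 and the other 8 between 1.02 and 1.73, while batch 2 has no gap of that size.

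The 4 highest libraries of batch 1 (HET replicates 4 and 5 and WT replicates 5 and 6) are also the 4 with the highest animal numbers in their names. The labels do not say what these numbers record, so in batch 1 the ranking and whatever goes with the numbers cannot be told apart. Depth in batch 1 was 29551337 to 32355507 counts in these 4 and 29792372 to 33019871 in the other 8, and mitochondrial transcripts took 7.55% to 8.09% and 7.51% to 9.70% of counts, so both ranges overlapped. Batch 2 libraries held 36380374 to 50746652 counts. The 7SL RNA genes Rn7s1 and Rn7s2 took 40.1% to 43.9% of TPM in batch 1 and 0.0071% to 0.046% in batch 2, so TPM was compared only within a batch and levels below are CPM scaled by TMM, a factor that aligns libraries on most genes. In batch 1 the Nbl1 level of 3 libraries went against their labels: 9.25 CPM in HET replicate 6, 5.42 in WT replicate 1 and 3.62 in WT replicate 2, where the other 5 HET libraries had 3.86 to 4.90 and the other 4 WT libraries 7.0 to 7.78. The split was therefore also fitted without the 4 high libraries and without these 3. The slope used below was refitted without the 4 but not without the 3. The proximal tubule list, checked as a marker of kidney, summed to 33587 to 42551 CPM in all 24 libraries, while lists for adrenal gland (2.10 to 3.99 CPM) and skeletal muscle (3.11 to 13.7 CPM) were near 0.

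Across the split of 12 against 12, Clec10a, a C-type lectin of macrophages and dendritic cells, was the only gene of 18126 that passed the test in edgeR. Its level in batch 1 was 0.994 to 1.62 CPM (median 1.09) in the upper 6 and 0.371 to 1.38 (median 0.663) in the lower 6. In batch 2 it was 1.61 to 2.31 CPM (median 1.80) in the upper 6 and 0.781 to 1.29 (median 1.05) in the lower 6. The 2 sides did not overlap in batch 2 and overlapped in batch 1. The upper 12 were 1.74-fold higher (95% interval 1.45 to 2.10; log2 fold change 0.80 ± 0.14 SE, adjusted p = 0.0427, edgeR's quasi-likelihood test with batch and genotype as covariates and Benjamini-Hochberg adjustment). That is 0.00552% of the genes tested, and no gene was lower; 4.63% of genes were higher and 4.88% lower at an unadjusted p under 0.05, or 1724 in all. DESeq2 with the same covariates called 16 genes higher and 10 lower, Clec10a among them. The edgeR call held without WT replicate 1, 6 or 8 and was lost without any other single library (adjusted p from 0.0007107 to 0.127 over the 24 fits, log2 fold change 0.76 to 0.90), and without the genotype covariate it was 0.20. The call was also lost with the ranking on CPM (adjusted p = 0.37), and the slope of Clec10a on the score as a continuous measure was 0.28 ± 0.11 (adjusted p = 0.33). Beside it, 0 of 17 macrophage markers passed the test in edgeR, and 0 had an unadjusted p under 0.05. Of all 18126 genes 8412 had a positive log2 fold change, with a median of -0.01. Of the 17 macrophage markers 15 were positive, with a median of 0.15, and 0.29 in batch 2 alone. Their summed level was 437 to 643 CPM in the upper and 426 to 605 in the lower 6 of batch 1, and 584 to 922 (median 855) and 569 to 872 (median 604) in batch 2. The part of macrophage number in the Clec10a result was not tested, and in whole kidney RNA fewer cells of a type and less RNA per cell cannot be told apart.

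The split treats a kidney at 4.81 and one at 1.64 as the same, so the score itself was also used as a continuous covariate, in a second fit over all 24 libraries with batch and genotype. The slope of a gene is then its log2 change per unit of score. With edgeR's quasi-likelihood test, 101 genes increased with the score (0.557% of the 18126 tested) and 10 decreased (0.0552%). Of the 101, 30 belong to 3 lists of immediate early genes (AP-1 and ATF factors, then EGR, NR4A and KLF factors, then feedback inhibitors). These lists held 8, 19 and 26 of the 18126 genes tested, and were chosen with earlier results of these data known. In 0 of the 101 did the upper 12 and lower 12 libraries separate without overlap. That count pooled CPM over batches whose levels differ for some genes, and the share over all genes was not counted. In 65 of the 101 all 4 of the high-numbered libraries were above the other 8 of batch 1, as in 1.24% of all genes tested. These libraries hold the 4 highest scores of batch 1, so the slope favours such genes by construction and the 65 are a description. Without these 4 libraries 1 gene, Btg2, passed the test, and 0 decreased. The score was read from the same libraries as the genes, so these p-values describe association across libraries and not an effect of any manipulation.

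EGR, NR4A and KLF factors, the nuclear arm of the response, held 12 increasing genes of 19 tested and 0 decreasing. Their median slope was 0.52, against 0.00 for all genes tested, and their median log2 fold change in the split was 0.50, against -0.01. Egr2, a zinc finger factor like Egr1 (GRCm38 chr10:67535475-67542188, plus strand), was at 47.8 CPM in HET replicate 5, 16.7 in WT replicate 6, 14.7 in HET replicate 4 and 7.43 in WT replicate 5, and at 1.41 to 4.31 in the other 8 libraries of batch 1. In batch 2 it ran from 4.06 to 10.8 CPM (median 4.15) in the upper 6 and from 1.94 to 6.33 (median 3.56) in the lower 6. The 4 libraries stood clear of the rest of batch 1, while the sides of batch 2 overlapped. The slope of Egr2 was 1.20 ± 0.07 (SE, adjusted p = 3.23e-12), a 2.30-fold change per unit of score, and 1.17 without the 4 libraries (adjusted p = 0.0510).

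Nr4a1, an orphan nuclear receptor and a classic immediate early gene, had the steepest slope among the named genes outside the ranking. It was at 34.3 to 176 CPM in the 4 libraries and 2.51 to 8.63 CPM in the other 8 of batch 1. Batch 2 gave 7.97 to 66.1 CPM (median 9.06) in the upper 6 and 3.05 to 28.7 CPM (median 9.39) in the lower 6. The medians of batch 2 were thus close, and HET replicate 12, at 66.1 CPM, set the top of that batch. Its slope was 1.48 ± 0.18 (SE, adjusted p = 0.000116), and without the 4 libraries 1.49 (unadjusted p = 0.0136, adjusted p = 0.77). Nr4a2, its relative, was at 2.15 to 17.5 CPM in the 4 libraries against 0.699 to 1.26 in the other 8. The slope of Nr4a2 was 1.076 ± 0.16 (adjusted p = 0.000637), and 0.34 without the 4 libraries (unadjusted p = 0.45).

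The smallest p-values of all genes belonged to Btg2 and Ier2. Btg2, an antiproliferative gene also listed among p53 targets (GRCm38 chr1:134075170-134079120, minus strand), was at 39.2 to 149 CPM in the 4 libraries and 15.6 to 21.6 in the other 8. In batch 2 the upper 6 had 22.4 to 41.3 CPM (median 23.6) and the lower 6 had 18.6 to 26.0 (median 21.5). Its sides overlapped in batch 2, but its slope was the only one that passed the test without the 4 libraries, at 0.62 (adjusted p = 0.000574), against 0.80 ± 0.03 (SE, adjusted p = 9.26e-17) with them. Ier2, a nuclear regulator induced with Fos (GRCm38 chr8:84661331-84662852, minus strand), was at 11.6 to 37.5 CPM in the 4 and 4.0 to 6.82 CPM in the other 8. Its batch 2 levels were 6.42 to 8.69 CPM (median 8.41) in the upper 6 and 5.72 to 6.85 (median 6.19) in the lower 6, which overlapped. The slope of Ier2 was 0.81 ± 0.04 (SE, adjusted p = 7.55e-16). Egr3 had 1.19 to 13.5 CPM in the 4 libraries and 0.424 to 1.21 in the other 8, with a slope of 1.07 ± 0.10. Arc, known from neuronal synapses, and Csrnp1, a nuclear factor, had slopes of 0.71 ± 0.09 and 0.70 ± 0.09. Without HET replicate 5 alone, the number of increasing genes fell to 30 and that of decreasing genes to 1, and Egr2, Btg2, Ier2, Egr3, Nr4a1, Nr4a2, Arc and Csrnp1 still passed.

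**Figure D2:**
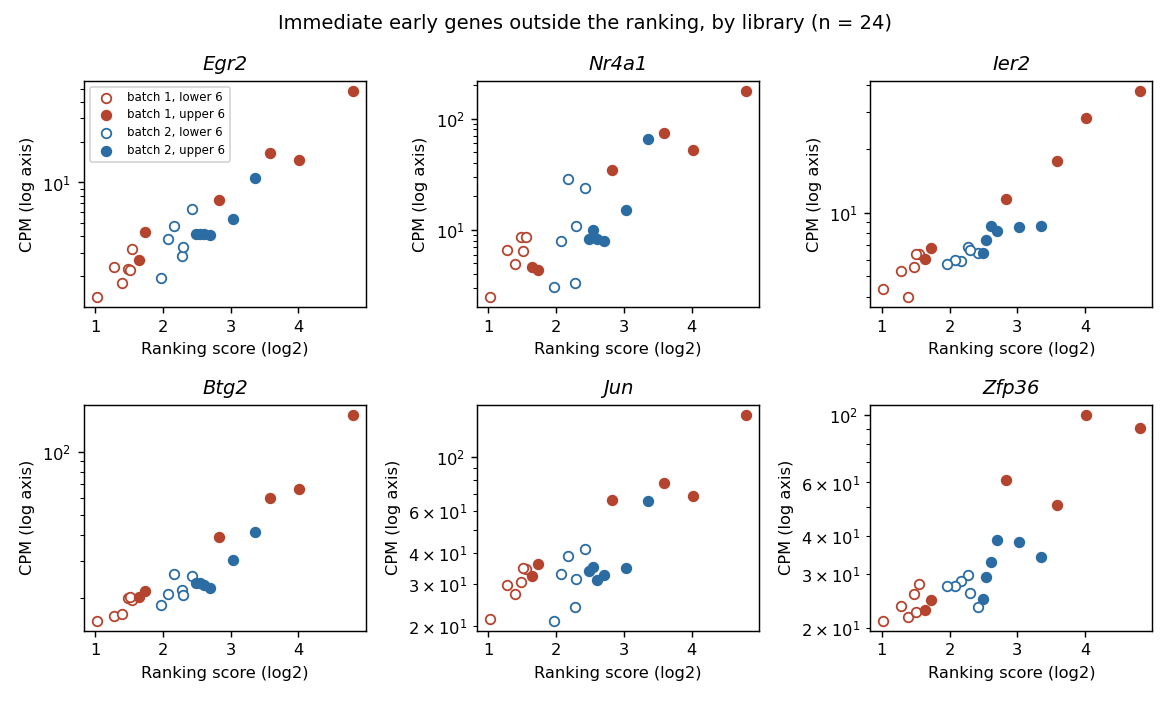
CPM (log axis) of 6 immediate early genes that did not enter the ranking, against the ranking score (log2), with 1 point per library, red for batch 1, blue for batch 2, filled for the upper 6 and open for the lower 6. The 4 libraries of batch 1 at a score of 2.83 or more carry the highest values of that batch in each panel, and HET replicate 12 (score 3.35) the highest of batch 2 in the panels of Egr2, Nr4a1, Ier2, Btg2 and Jun.

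AP-1 and ATF factors held 4 increasing genes of 8 tested (Jun, Atf3, Fosl2 and Mafk) and 0 decreasing, with a median slope of 0.26. Jun, the main partner of Fos in AP-1 (GRCm38 chr4:95049034-95052222, minus strand), was at 66.3 to 149 CPM in the 4 libraries and 21.5 to 36.1 in the other 8 of batch 1. Batch 2 gave 30.9 to 65.5 CPM (median 34.4) in the upper 6 and 21.1 to 41.7 (median 32.1) in the lower 6, with overlap. Its slope was 0.63 ± 0.05 (SE, adjusted p = 2.48e-07), and 0.71 without the 4 libraries (unadjusted p = 0.000215, adjusted p = 0.54). Atf3, a stress-induced factor, reached 14 CPM in HET replicate 5 but 2.48 to 3.65 in the other 3 of the 4 libraries, which overlapped the remaining 8 (1.16 to 2.997). Its slope of 0.70 ± 0.11 (adjusted p = 0.000643) did not pass without HET replicate 5 (adjusted p = 0.25). Fosl2, another Fos relative, was at 57.8 to 127 CPM against 30.6 to 48.0, with a slope of 0.38 ± 0.06. Mafk, a small MAF protein, had the smallest slope of the 4, at 0.12 ± 0.02, and levels that overlapped (25.04 to 30.7 against 20.7 to 26.0 CPM). Slopes of Fosl2 and Mafk also lost the call without HET replicate 5 (adjusted p = 0.12 and 0.26).

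Feedback inhibitors, which shut the response down by removing phosphate from MAP kinases, blocking receptor signalling or degrading mRNA, held 14 increasing genes of 26 tested and 0 decreasing. Their median slope was 0.17. Zfp36 (tristetraprolin), which directs AU-rich mRNAs to decay, was at 50.6 to 99.8 CPM in the 4 libraries and 21.2 to 27.99 CPM in the other 8. Batch 2 gave 24.9 to 38.9 CPM (median 33.5) in the upper 6 and 23.4 to 29.9 (median 27.5) in the lower 6. Zfp36 thus separated the 4 libraries from the rest of batch 1 and overlapped between the sides in batch 2. Its slope was 0.63 ± 0.05 (SE, adjusted p = 1.09e-07), and 0.37 without the 4 libraries (unadjusted p = 0.00275). Dusp1, a MAP kinase phosphatase, was at 57.6 to 105 CPM in the 4 and 14.6 to 23.9 in the other 8, with a slope of 0.76 ± 0.11 (adjusted p = 0.000715). In batch 2 Dusp1 did not follow the ranking closely: HET replicate 9, in the lower 6, had 38.4 CPM, near the highest of the upper 6 (40.8). Dusp5, a nuclear phosphatase of ERK, had 3.29 to 7.99 CPM against 1.01 to 3.12, with a slope of 0.52 ± 0.07. Errfi1, an inhibitor of the EGF receptor and the most abundant member in TPM, was at 564 to 737 CPM in the 4 libraries and 276 to 399 in the other 8. In batch 2 it was at 272 to 519 CPM (median 389) in the upper 6 and 375 to 526 (median 401) in the lower 6. Its slope of 0.34 ± 0.05 (adjusted p = 0.000643) therefore rested on batch 1: within batch 2 it was 0.08 (unadjusted p = 0.68). Sik1, a kinase that restrains CREB coactivators, had a slope of 0.31 ± 0.03, Dusp6 and Spry4, both brakes on ERK signalling, 0.30 ± 0.05 and 0.27 ± 0.04, and Zfp36l1, a relative of Zfp36, 0.14 ± 0.02. Of these, Dusp6, Spry4 (both adjusted p = 0.19) and Zfp36l1 (0.15) did not pass without HET replicate 5.

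Secreted products and targets of the transcription regulators YAP and SRF held 5 increasing genes of 18 tested and 0 decreasing, with a median slope of 0.13. Ccn1, a matricellular protein, was at 55.9 to 182 CPM in the 4 libraries and 21.9 to 36.4 in the other 8. Batch 2 gave 29.5 to 63.8 CPM (median 40.4) in the upper 6 and 25.1 to 50.8 (median 33.9) in the lower 6, which overlapped. The slope of Ccn1 was 0.73 ± 0.06 (adjusted p = 1.09e-07). Hbegf, a ligand of the EGF receptor, was at 24.4 to 36.7 CPM against 11.2 to 16.6, with a slope of 0.38 ± 0.05. Thbs1, which encodes the matrix protein thrombospondin, had a slope of 0.26 ± 0.05; the 4 libraries overlapped the other 8, and it did not pass without HET replicate 5 (adjusted p = 0.33). Among NF-kB targets and acute cytokines, 5 of 20 increased and 0 decreased, with a median slope of 0.12. Il1b, the inflammatory cytokine, was at 1.68 to 4.74 CPM in the 4 libraries and 0.65 to 2.23 CPM in the other 8, with a slope of 0.56 ± 0.09. Nfkbiz, a nuclear regulator of NF-kB, and Cebpb and Cebpd, acute-phase factors, had slopes of 0.27 ± 0.05, 0.38 ± 0.08 and 0.41 ± 0.09, and all 3 lost the call without HET replicate 5 (adjusted p = 0.51, 0.33 and 0.28).

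The other genes with the smallest p were not in the immediate early lists. Skil, a repressor of SMAD signalling, was at 97.6 to 121 CPM in the 4 libraries and 60.8 to 80.9 in the other 8, with a slope of 0.22 ± 0.02 (SE, adjusted p = 4.02e-06). Rasd1, a small G protein induced by dexamethasone, was at 8.39 to 13.1 CPM against 2.31 to 3.24, with a slope of 0.70 ± 0.08. Ifrd1, a transcriptional coregulator, was at 22.1 to 27.5 CPM against 12.3 to 18.4, with a slope of 0.26 ± 0.04. These 3 genes separated the 4 libraries from the other 8 without overlap. The lower direction was shallower. Zfp157, a zinc finger protein, was at 12.2 to 16.5 CPM in the 4 libraries and 16.6 to 20.1 CPM in the other 8, with a slope of -0.14 ± 0.03 (adjusted p = 0.00496). Psme2, a proteasome activator subunit, Septin4, a cytoskeletal GTPase, and S100a11, a calcium-binding protein, had slopes of -0.08 ± 0.02, -0.13 ± 0.03 and -0.10 ± 0.02. Without HET replicate 5 none of these 4 decreasing genes passed the test (adjusted p from 0.16 to 0.33).

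Promoter letters were read for the increasing genes, because these genes moved together and the binding motifs of CREB and SRF are the textbook inputs to immediate early promoters. RefSeq promoter windows on GRCm38.p6, from 250 bases before to 50 after a gene's start, were matched by symbol to 65 of the 101 genes and to 27025 genes in all. Both strands were searched, and a gene counted when any of its windows held the motif; none of the motifs contains another. The cyclic AMP response element TGACGTCA stood in 11 of the 65 genes (16.9%) and in 2.03% of all genes with a window. The CArG box bound by SRF stood in 5 (7.69%) against 1.81%, and the E-box CACGTG, which clock factors also bind, in 13 (20%) against 8.09%. The AP-1 site TGANTCA stood in 4 (6.15%) against 8.97%, and the heat shock element GAANNTTC in 3 (4.62%) against 9.04%. The glucocorticoid response element was found in 0 of the 65 and in 0.0111% of all. Of the 4 ranking genes 3 had a window and 0 held any of these motifs within it. These are counts of letters and not of bound sites, and were not tested. To show what the matches look like, 60 bases from 6 promoters are given 5′ to 3′ on the gene's own strand, with the motif in capitals. The first 5 hold the cyclic AMP response element: Btg2 (chr1:134079287-134079346, minus strand, motif start 166 bases before the gene's start), Dusp1 (chr17:26508581-26508640, minus, 143 bases), Errfi1 (chr4:150854994-150855053, plus, 51 bases), Ppp1r15a (chr7:45526269-45526328, minus, 12 bases) and Dusp8 (chr7:142095313-142095372, minus, 63 bases). The last, Egr2 (chr10:67537772-67537831, plus), holds a CArG box. Distances are to the RefSeq start, which can differ from the gene coordinates printed above, taken from GENCODE M21. The Egr2 stretch lies inside the span printed for that gene. In a check, the windows of Dusp1, Fos and Zfp36 read into the start of a GENCODE transcript, and those of Btg2 and Junb did not.
Btg2: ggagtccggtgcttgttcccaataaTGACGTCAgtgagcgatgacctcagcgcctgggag
Dusp1: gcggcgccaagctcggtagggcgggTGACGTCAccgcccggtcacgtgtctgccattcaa
Errfi1: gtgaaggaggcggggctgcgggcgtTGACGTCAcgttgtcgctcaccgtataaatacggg
Ppp1r15a: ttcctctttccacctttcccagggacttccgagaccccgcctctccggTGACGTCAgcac
Dusp8: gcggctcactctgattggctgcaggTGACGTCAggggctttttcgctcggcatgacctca
Egr2: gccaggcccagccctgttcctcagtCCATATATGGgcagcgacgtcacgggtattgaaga

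Circadian clock genes moved in both directions. Of 20 tested, 4 increased (Arntl, Npas2, Nfil3 and Bhlhe40) and 1 decreased (Dbp), and the median slope of the list was -0.02. Bhlhe40, a repressor that dampens the clock, was named after its values were seen. Arntl (Bmal1), the transcriptional activator of the clock, was at 16.9 to 19.4 CPM in the 4 libraries and 7.81 to 13.4 CPM in the other 8 of batch 1. In batch 2 it was at 18.6 to 26.1 CPM (median 24.16) in the upper 6 and 18.5 to 22.5 (median 19.96) in the lower 6. The 4 libraries did not overlap with the other 8, and the sides of batch 2 did. The slope of Arntl was 0.28 ± 0.04 (SE, adjusted p = 0.000282), 0.27 within batch 2 alone (unadjusted p = 0.0235) and 0.19 without the 4 libraries (unadjusted p = 0.15). Npas2, which pairs with Arntl, was at 18.1 to 19.5 CPM in the 4 libraries and 5.83 to 12.2 in the other 8, with a slope of 0.38 ± 0.06 (adjusted p = 0.00177). In batch 2 its levels were 14.3 to 23.99 CPM (median 19.6) in the upper 6 and 12.8 to 18.4 (median 16.1) in the lower 6. Nfil3, a repressor of Dbp targets, was at 4.16 to 12.3 CPM in the 4 libraries, which overlapped the other 8 (2.75 to 4.75), with a slope of 0.49 ± 0.08. Dbp, an output activator whose peak lies opposite to that of Arntl, was at 10.6 to 17.0 CPM in the 4 libraries and 17.7 to 43.7 CPM in the other 8. Its batch 2 levels were 5.90 to 10.9 CPM (median 6.95) in the upper 6 and 10.3 to 13.1 (median 10.8) in the lower 6. Dbp thus lay lower in all 4 libraries than in the other 8, and mostly lower in the upper side of batch 2, where 1 side reached into the other. The slope of Dbp was -0.45 ± 0.09 (SE, adjusted p = 0.0192). It was -0.37 without the 4 libraries (unadjusted p = 0.24) and -0.66 in batch 2 alone (unadjusted p = 0.00728). Arntl (adjusted p = 0.00143) and Npas2 (0.0157) passed without HET replicate 5, and Nfil3, Dbp (both 0.28) and Bhlhe40 (0.39) did not. The labels used here give no hour of collection, and its part in these slopes was not tested. Per3 and Nr1d1, drawn beside them and chosen after their values were seen, did not pass the test: Per3 was at 18.1 to 21.7 CPM in the 4 libraries and 24.4 to 40.1 in the other 8, and Nr1d1 at 37.4 to 58.7 and 43.9 to 80.0.

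**Figure D3:**
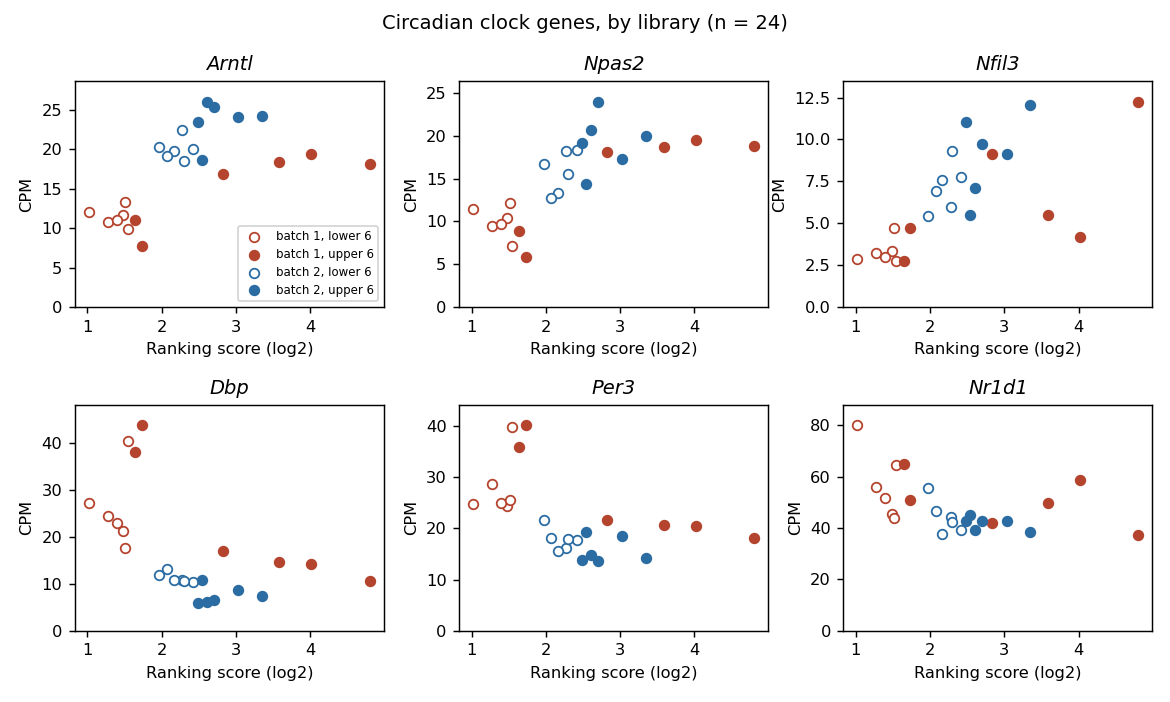
CPM of 6 circadian clock genes (linear axis from 0) against the ranking score (log2), 1 point per library, with the colours and fills of the immediate early plot. The 4 high libraries of batch 1 lie above the other 8 for Arntl and Npas2 and below them for Dbp and Per3.

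Stress lists other than the immediate early lists held at most 2 called genes each on the slope, but the lists are short. Over all genes tested, 0.557% increased with the score and 0.0552% decreased. Cytosolic heat shock chaperones had 0 of 20 past the test in either direction with edgeR (median slope 0.03). At an unadjusted p under 0.05 in the split, 1 was higher and 1 lower. On the slope 15 of 20 were positive, and 4 were higher and 0 lower at that level, against 899 and 760 of all 18126 genes tested. Within batch 1 alone the slope of 1 member passed the test. Hspa8, the constitutive chaperone with the highest TPM of the list, was at 1096 to 1809 CPM in the upper 6 and 955 to 1442 in the lower 6 of batch 1, and at 1526 to 2752 and 1516 to 2761 in batch 2. The inducible Hspa1a was at 37.2 CPM in HET replicate 5 and 11.5 to 22.9 in the other 3 of the 4 libraries, against 10.8 to 17.2 in the other 8 of batch 1. HET replicate 5 and WT replicate 6 thus lay above those 8, and the other 2 within their range; the slope of Hspa1a was 0.27 ± 0.11 (adjusted p = 0.45). Of 27 genes of the unfolded protein and integrated stress response, 2 increased. Within batch 2 alone 26 of the 27 slopes were positive, against 47.9% of all genes, with a median of 0.17. There 7 were higher at an unadjusted p under 0.05 in edgeR, against 1.94% of all genes tested. Without the 4 libraries the median slope of the list was 0.19. Ppp1r15a (GADD34), which restores translation after stress, had a slope of 0.26 ± 0.04 (adjusted p = 0.000439) and was at 10.9 to 14.9 CPM in the 4 libraries and 7.68 to 9.67 in the other 8. Levels in batch 2 were 9.90 to 16.5 CPM (median 12.7) in the upper 6 and 8.78 to 12.8 (median 11.1) in the lower 6. Atf4, the factor of the integrated stress response, had a slope of 0.12 ± 0.02. The ranges of Ppp1r15a in the 4 and in the other 8 did not overlap. Both genes can be induced with immediate early genes as well, and which response their slopes belong to was not tested. Of 17 glucocorticoid targets 1 increased, Errfi1, which is also a feedback inhibitor. Of 21 hypoxia targets 1 increased, Ndrg1, with a slope of 0.12 ± 0.03. Of 16 p53 targets 2 increased, Btg2 and the kinase Plk3, which are immediate early genes in other settings. Which response they belong to here was not tested. Plk3 was at 10.7 to 40.2 CPM in the 4 and 2.36 to 5.92 in the other 8, with a slope of 0.93 ± 0.18. Without HET replicate 5 Atf4, Ndrg1 and Plk3 did not pass (adjusted p = 0.33, 0.27 and 0.22). NRF2 targets had 0 of 18 past the test. At an unadjusted p under 0.05, 1 was higher in the split and 2 were higher on the slope, with 0 lower in each.

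Disease and cell type lists were then set beside the ranking. Fibrillar collagen and fibrosis genes had 0 of 28 past the test on the slope or in the split. In the split 4.63% of all genes tested were higher and 4.88% lower at an unadjusted p under 0.05. Of the 28 fibrosis genes 9 were higher and 0 lower at that level, with a median log2 fold change of 0.15, but the median slope was -0.03. That list's sum was 1476 to 2163 CPM (median 1692) in the upper and 1512 to 1876 (median 1673) in the lower 6 of batch 1, and 2133 to 2483 (median 2310) and 1709 to 2260 (median 1861) in batch 2. The sides overlapped in both batches, and the medians lay apart in batch 2. Tubular injury genes gave 0 of 27 past the test and 4 higher at an unadjusted p under 0.05, with a median of 0.09. Nuclear-encoded respiratory chain genes gave 0 of 32 past the test and 10 lower at an unadjusted p under 0.05, with a median of -0.06. Mitochondrially encoded genes gave 0 of 15 past the test and 6 lower at an unadjusted p under 0.05, with a median of -0.16. Collecting duct markers gave 0 of 15 past the test and 5 lower at an unadjusted p under 0.05. On the slope the medians of these last 4 lists were -0.05, -0.01, -0.03 and -0.03. Within batch 2 alone, where 0 of all 17702 genes tested were called, the median slopes were 0.17 for fibrosis and 0.18 for tubular injury genes. There 27 of 28 fibrosis and 25 of 27 tubular injury slopes were positive, against 47.9% of all genes. At an unadjusted p under 0.05 in edgeR 1 and 4 of them were higher, against 1.94% of all genes tested. Without the 4 high-numbered libraries of batch 1 the medians were 0.17 and 0.24.

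Markers of tissue around the kidney varied between libraries as well. Adipose markers had the largest median in the split, 0.87, with 0 of 13 past the test and 1 higher at an unadjusted p under 0.05. Over all 18126 genes tested, 8988 slopes were positive, and 899 genes were higher and 760 lower at an unadjusted p under 0.05. Of the 13 adipose markers 0 passed the test on the slope, while all 13 were positive and 7 were higher and 0 lower at that level. Their summed level was 717 to 1334 CPM in the upper and 922 to 1083 in the lower 6 of batch 1, and 1126 to 1701 and 899 to 1414 in batch 2. The median slope of the adipose list was 0.50 in batch 1 and -0.12 in batch 2, and it was -0.67 without the 4 libraries. B and plasma cell markers had a median of 0.47 in the split and -0.15 on the slope, with 0 of 12 past the test in each. Their median slope was -0.25 in batch 1 and 0.75 in batch 2, and 0.61 without the 4 libraries. In batch 2 alone 11 of 11 slopes were positive, and 4 were higher at an unadjusted p under 0.05 in edgeR. Over all genes tested in batch 2, 47.9% of slopes were positive and 1.94% were higher at that level. The part of adipose tissue and of lymphocytes in the immediate early result was not tested. Podocyte markers had 1 increasing gene of 15, the transcription factor Foxc2 (slope 0.27 ± 0.05), at 4.87 to 6.29 CPM in the 4 libraries and 2.58 to 3.84 in the other 8. Foxc2 did not follow the score in batch 2, where it was at 2.53 to 3.95 CPM (median 3.44) in the upper 6 and 2.83 to 4.05 (median 3.15) in the lower 6. Of 25 BMP pathway genes 1 increased, the inhibitory SMAD Smad7 (slope 0.12 ± 0.03), at 36.2 to 40.3 CPM in the 4 and 29.0 to 33.6 in the other 8. Its slope was negative in batch 2 alone (-0.04, unadjusted p = 0.69) and without the 4 libraries (-0.03, unadjusted p = 0.72). Among long noncoding RNAs Neat1, the scaffold of nuclear paraspeckles, was the 1 of 8 that increased, with a slope of 0.21 ± 0.04. Without HET replicate 5, Foxc2, Smad7 and Neat1 did not pass (adjusted p = 0.23, 0.43 and 0.38). Proximal tubule, loop of Henle, collecting duct, endothelial, mesangial, T and NK cell, mast cell and erythrocyte markers gave 0 increasing and 0 decreasing genes on the slope.

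**Figure D4:**
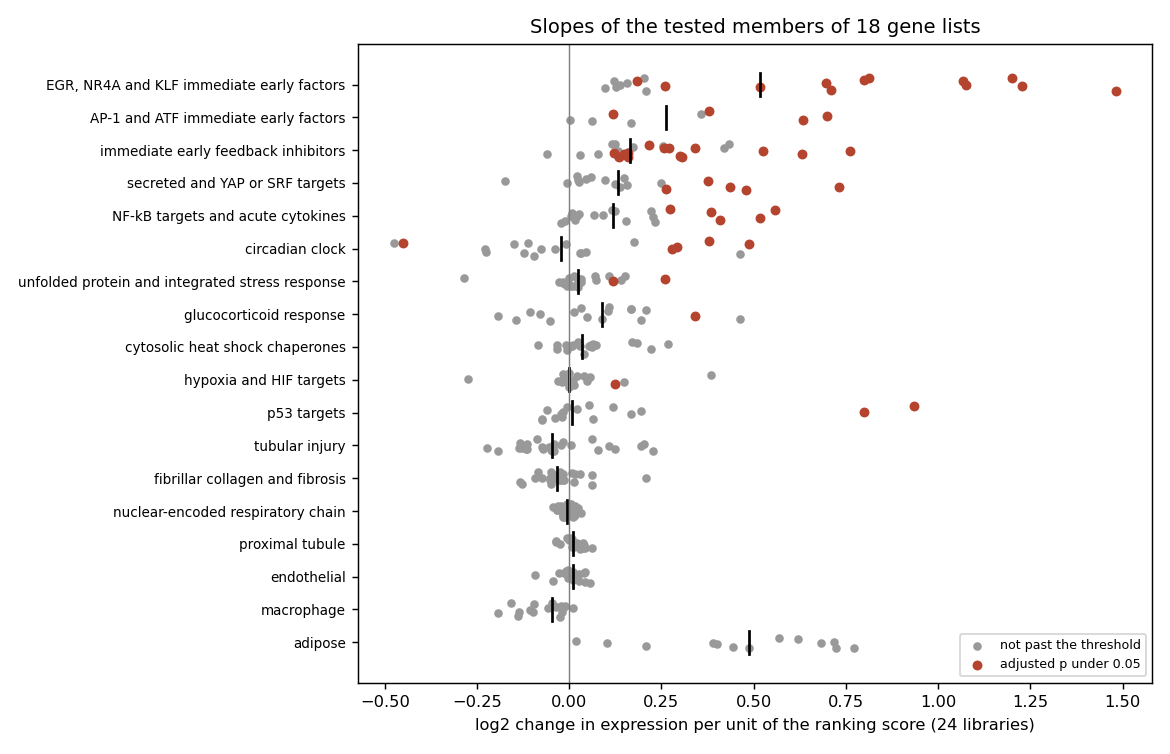
Slope of each tested member of 18 gene lists (log2 change per unit of ranking score, 24 libraries), with members past an adjusted p of 0.05 in red, the others in grey and the list median as a black bar. The EGR, NR4A and KLF list is shifted furthest to the right (median 0.52) and has 12 red members of 19, whereas the adipose list has a median of 0.49 with no red member.

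The 2 batches share no library, so genes called in one could be looked up in the other. On the slope within batch 1, 128 genes increased (0.692% of 18490 tested) and 15 decreased. In batch 2 alone no gene passed the test with edgeR (smallest adjusted p = 0.0985), and 1.94% of 17702 genes were higher at an unadjusted p under 0.05. Of the 128 genes, 110 had a positive slope in batch 2, against 47.9% of all genes, and 27 had an unadjusted p under 0.05 in that direction. The median slope of the 128 was 0.24 in batch 1 and 0.15 in batch 2. Egr3 (1.06 in batch 1 and 1.29 in batch 2), Nr4a1 (1.5 and 1.49), Egr2 (1.22 and 1.07) and Jun (0.64 and 0.66) had slopes of like size in both. In each of these genes HET replicate 12 stood far above the rest of the upper 6 of batch 2. No slope within batch 2 was fitted without that library. The batch 2 slope of Nr4a1 had an unadjusted p of 0.0532 in edgeR. Nr4a2 (1.19 and 0.41), Errfi1 (0.37 and 0.08) and Ier2 (0.83 and 0.50) had smaller slopes in batch 2; these differences were not tested. The test of the difference between batches was made for the split, where 0 genes passed in edgeR (smallest adjusted p = 0.41, 989 at an unadjusted p under 0.05) and 2 in DESeq2, Gm43601 and Spp2. The change from lower to upper side was also tested for a difference between HET and WT mice. For this interaction 0 genes passed with either tool (smallest adjusted p = 0.99962 in edgeR, 379 genes at an unadjusted p under 0.05).

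**Figure D5:**
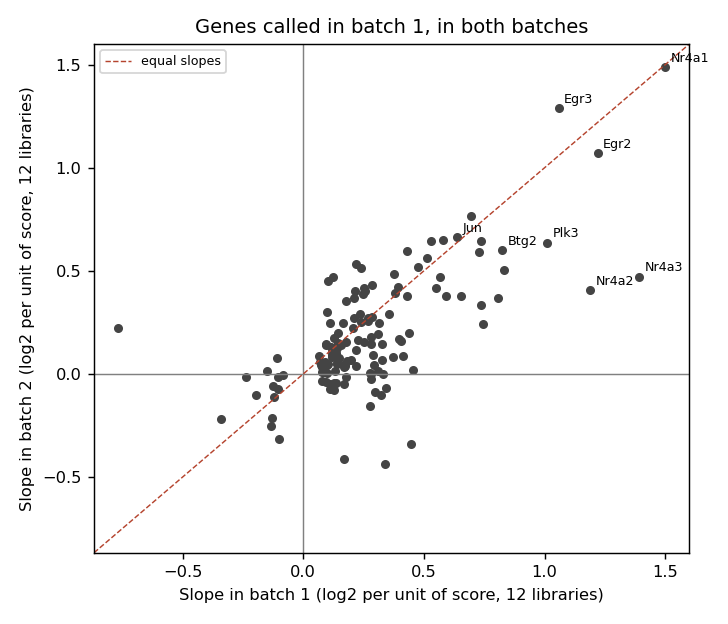
Slopes in batch 2 (vertical) against slopes in batch 1 (horizontal), in log2 per unit of score, of the genes called in batch 1 and tested in batch 2, with the line of equal slopes dashed. Nr4a1, Egr3, Egr2 and Jun lie near the line, and Nr4a2 (1.19 and 0.41) well below it.

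The disease gene and the labelled gene did not pass the test in either fit. Col4a5 was at 17.3 to 27.3 CPM over the 24 libraries, with a log2 fold change of 0.05 ± 0.05 in the split (adjusted p = 0.79). Nbl1 had a log2 fold change of 0.40 ± 0.15 (adjusted p = 0.40) in the split and a slope of 0.05 ± 0.10 (adjusted p = 0.93).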

How the data were processed

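Kidney RNA of 24 mice was sequenced. The authors deposited 1 table with expected counts, TPM and FPKM of 55487 genes per library. Per the submitters' processing notes, fastp, STAR and featureCounts were used with the mouse build GRCm38. No source used here states tool versions, strandedness or the annotation used. In a library 11.8% to 15.4% of genes had a deposited expected count that was not whole, and all were rounded. The deposited FPKM values were not analysed. Deposited TPM set the ranking (pseudocount 1).

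Genes were kept by filterByExpr, scaled by TMM and tested with edgeR 4.0.16 (limma 3.58.1, R 4.3.3; robust quasi-likelihood), with batch, genotype and either side or score. P-values were adjusted by Benjamini-Hochberg over 18126 genes, without the 4 ranking genes, at a threshold of 0.05. The 18126 genes held 99.9% of counts. Alternatives included DESeq2 1.42.0, other scaling and filters, subsets and leaving out each library. The slope was planned as an alternative, and was given its place in the report after the results were seen. Members and lists were chosen with earlier results of these data known. Named genes are the ranking genes, Nbl1 and Col4a5, up to 15 called genes of smallest p per direction at a mean of at least 1 CPM, up to 4 called members per list (8 in the AP-1, EGR, feedback and heat shock lists) and, in a list without one, the member of highest TPM where its levels bear on the text; the same rule was applied to the slope after its values were seen.

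Libraries carry separate animal numbers. Among 61 pairs of libraries of 1 genotype and batch, none was a duplicate (lowest chi-square per degree of freedom 8.88). On simulated counts of 17899 genes the split recovered 60%, 84%, 98% and 100% of genes changed 1.25, 1.5, 2 and 3-fold. There 50 genes were changed at each size, and 180 were called, 9 of them unchanged. The measured split called 1 gene, and recovery at so few calls was not tested. In it Nr4a1 (3.33-fold), Egr2 (2.95-fold) and Ier2 (2.01-fold) did not pass in edgeR (adjusted p = 0.38, 0.31 and 0.30). On simulated counts of 17872 genes the slope recovered 26%, 68%, 94% and 100% at slopes of 0.1, 0.2, 0.4 and 0.8. There 151 were called, 7 of them unchanged, and the measured slope called 111. GENCODE M21 gave coordinates for 55141 identifiers; promoters are from RefSeq (GRCm38.p6). Of the named genes, 1 is not reported here.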

Additional observations from a re-analysis of the deposited data

Results flagged for a closer look

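In groups of 6 libraries (1 side of 1 batch), 20 of 192 groups over 48 items held a library far from the other 5, by Dixon's criterion at 95%, where chance gives about 5% of groups. Of these, 9 were HET replicate 12 in the upper 6 of batch 2: Egr2 10.8 CPM, Egr3 3.98, Jun 65.5, Nr4a1 66.1, Fosl2 71.7, Nr4a2 5.10, Thbs1 224.7, Cebpb 5.42 and Plk3 23.04. In the upper 6 of batch 1 HET replicate 5 stood apart in Atf3 (14 CPM), Thbs1 (254) and Nfkbiz (35.8), and HET replicate 1 in S100a11 (69.8). In the lower 6 of batch 1 WT replicate 1 was low in Ccn1 (21.9 CPM) and Fosl2 (30.6), while HET replicate 3 was high in Il1b (2.23) and WT replicate 4 in Nfil3 (4.74). In the lower 6 of batch 2 HET replicate 9 was high in Dusp1 (38.4 CPM) and WT replicate 7 in Neat1 (1110). In the upper 6 of batch 2 WT replicate 10 was low in Arntl (18.6 CPM).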

How the results depend on the processing

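The count of genes that differed between the upper and lower 12 (1 higher, 0 lower) became 16 and 10 with DESeq2 and 101 and 10 with the slope. It became 0 higher without the genotype covariate, with limma on log2(TPM + 1), in batch 1, batch 2, HET or WT alone, without the 4 libraries next to the line, without the 4 high-numbered libraries of batch 1 and with the ranking on CPM; it stayed at 1 with RLE scaling, without a filter and without the 3 libraries against their labels. Leaving out each library in turn gave 0 to 1. At an unadjusted p under 0.05, limma on TPM had 4659 of 4710 genes higher, with a median over all genes of 0.09, against 839 of 1724 in edgeR. On the slope, the 101 increasing and 10 decreasing genes became 1 and 0 without the 4 high-numbered libraries, 0 and 0 in batch 2 alone, 30 and 1 without HET replicate 5 and 99 and 9 without HET replicate 12. The interaction with batch was 0 in edgeR and 2 in DESeq2. Settings on the 4 libraries, the CPM ranking and subsets of the slope were chosen after seeing the data. The cause of these changes was not tested.

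Log2 fold changes of the split turned with limma on TPM for Psme2 (0.0542), Septin4 (0.0252) and S100a11 (0.0467). Without the 4 libraries they turned for Septin4 (0.0166), Nr4a2 (-0.183), Errfi1 (-0.0253), Spry4 (-0.0629), Hbegf (-0.0614), Cebpb (-0.0273), Cebpd (-0.113), Ndrg1 (-0.0484) and Plk3 (-0.0871). In batch 2 alone they turned for S100a11 (0.0172), Errfi1 (-0.0382), Cebpb (-0.104) and Cebpd (-0.0211). The slope of Smad7 turned without the 4 libraries (-0.0328) and in batch 2 alone (-0.0446). No paired analysis was possible because the labels carry no replicate numbers; those printed here follow accession order and pair no samples. Of simulated slopes of 0.1, 26% were recovered, so smaller slopes can be missed here.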
